A study of Mus musculus with 8 samples.

Results

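Hormone-sensing luminal cells of the mouse mammary gland after involution were examined in 2 clusters that the study named putatively as hormone-sensing progenitors (C1) and hormone-sensing differentiated cells (C3). The members were the cells of the 2 post-involution (PI) libraries that had passed the deposited quality flag and carried either cluster number in the deposited annotation, which gave 3391 of the 25010 cells of the series. C1 held 107 cells of PI replicate 1 and 385 cells of PI replicate 2, and C3 held 412 and 2487 cells. The series profiled mammary epithelial cells of C57BL/6N mice on the 10x Chromium droplet platform, with 2 mice in each of 4 stages and 1 library per mouse. Both PI mice had raised a litter and were taken 11 days after natural weaning of the pups, and their age was not given in the sources used here. The nulliparous (NP) mice, used here as a second setting, were 8 weeks old and had not been pregnant. The labels name no transgene or treatment in either stage. Cells of all groups had been sorted for EpCAM, a surface protein of epithelial cells, after dead cells, FACS doublets and cells with CD31, CD45 or Ter119 (surface proteins of endothelial cells, leukocytes and erythroid cells) were gated out. By vaginal smear PI replicate 1 was in dioestrus, whereas PI replicate 2 and both NP mice were in oestrus, so that mouse and cycle stage cannot be told apart.

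Hormone-sensing cells are the luminal cells that carry the receptors for oestrogen, progesterone and prolactin. They answer ovarian hormones by secreting paracrine factors such as amphiregulin and Wnt4, which act on neighbouring cells that lack these receptors. The other luminal lineage starts from luminal progenitors, which give rise to the alveolar cells that make milk in pregnancy and lactation. After weaning the alveoli die back in a process called involution, and the gland returns to a state near that before pregnancy.

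All values were computed from counts of unique molecular identifiers (UMIs), which tag single captured transcripts. The kept cells held 13306760 UMIs in PI replicate 1 and 29690042 in PI replicate 2. Of the barcodes, 51 and 113 were shared with another library, and none of these was among the kept cells. UMIs were summed per library and cluster, and a level is given as CPM, the UMIs of a gene scaled to a fixed total of UMIs in that sum, with PI replicate 1 before PI replicate 2. The sums of C1 held 1889401 and 5026818 UMIs, and those of C3 held 3334145 and 15535856. C3 was compared with C1 over these 4 sums, with the mouse as a block, with the quasi-likelihood test of edgeR, and p-values of all 10599 genes tested were adjusted by the method of Benjamini and Hochberg. A log2 fold change is C3 over C1 after TMM scaling, ± its standard error (SE), and a gene was called at an adjusted p under 0.05. Only 1 residual degree of freedom was left among the sums, and the fit shared 1 estimate of the spread across genes, so that the errors rest on that shared spread. Where 1 PI mouse is left out, C3 against C1 rests on the single pair of sums of the other mouse, which is assumed to vary like the C2 and C4 sums of the NP mice, so that a call kept or lost there is a weak check. The clusters had been made from the same transcript counts, and the direction of genes that separate them was in part set by the clustering.

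Genes of the luminal progenitor lineage were among the largest differences between C1 and C3. In all, 4647 genes (43.8%) were called, 2088 higher in C3 (19.7%) and 2559 lower in C3 (24.1%). The falls were the larger changes. Among called genes, 1085 fell by more than 1 on the log2 scale and 230 by more than 4, whereas 294 rose by more than 1 and 10 by more than 2. The median over all genes was 0.01 and so lay near 0. Without the block for the mouse the counts were 762 higher and 1584 lower, with DESeq2 875 and 1505, with total UMIs in place of TMM factors 2397 and 2238, and with each cell thinned to 2000 UMIs 636 and 983. With total UMIs the larger count was thus that of the rises. Only 6 genes rose and 597 fell in a test against a log2 change of 1 (edgeR glmTreat, adjusted p under 0.01).

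Milk protein genes were abundant in C1 and nearly absent from C3. The caseins are the main milk proteins. Csn1s1 stood at 2583 and 3138 CPM in C1 and at 29.1 and 43.5 CPM in C3, with a log2 fold change of -6.34 ± 0.10. Csn3 stood at 3257 and 2961 CPM in C1 and at 33.6 and 26.6 CPM in C3 (-6.78 ± 0.10). Csn2 was less abundant, with 648 and 763 CPM in C1 and 6.9 and 9.27 CPM in C3 (-6.46 ± 0.13). In all of these the lower of the 2 mice in C1 was far above the higher of the 2 mice in C3. Csn1s2a, a further casein, gave 275 and 426 CPM in C1 and 4.2 and 3.67 CPM in C3 (-6.73 ± 0.15). Lalba, which encodes the lactose synthase subunit α-lactalbumin, and Wap, the whey acidic protein, were lower in level in C1, at 54 and 32.4 CPM and 3.18 and 5.57 CPM, and fell by 6.39 and 6.15 on the log2 scale. All 6 milk protein genes that could be tested thus fell in C3, with a median of -6.43 against 0.01 over all genes. In C7, the cluster that the study named luminal progenitors of PI mice, Csn1s1 stood at 4939 and 5908 CPM and Csn3 at 6626 and 6106 CPM, above C1 in both mice.

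The upstream sequences of Csn1s1 and Csn2 are shown as those of 2 caseins that were lower in C3 and had a RefSeq promoter. For Csn3, which was more abundant than Csn2, no RefSeq promoter was found. Casein promoters are known to bind STAT5, the factor that prolactin signalling activates. The 250 bases before each annotated start were taken from RefSeq (GRCm38.p6) and read 5′ to 3′ on the strand of the gene. Capitals mark matches to TTCNNNGAA, the spaced palindrome of STAT factors, which reads the same on both strands. Csn1s1 lies at chr5:87665958-87666207 on the plus strand and Csn2 at chr5:87699426-87699675 on the minus strand.
Csn1s1: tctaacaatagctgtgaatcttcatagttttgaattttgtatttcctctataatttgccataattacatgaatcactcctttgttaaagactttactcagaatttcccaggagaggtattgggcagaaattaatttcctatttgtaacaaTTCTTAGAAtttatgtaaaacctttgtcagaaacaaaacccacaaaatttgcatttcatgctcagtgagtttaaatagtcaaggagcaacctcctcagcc
Csn2: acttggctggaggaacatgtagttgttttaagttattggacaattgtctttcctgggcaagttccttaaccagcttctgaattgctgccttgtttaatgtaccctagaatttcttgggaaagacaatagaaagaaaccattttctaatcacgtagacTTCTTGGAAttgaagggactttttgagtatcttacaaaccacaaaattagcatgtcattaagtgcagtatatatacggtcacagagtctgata
The match began 100 bases before the start of Csn1s1 and 93 bases before that of Csn2. RefSeq promoters were found for 6 of 8 milk protein genes, and 4 of them held the letters within 300 bases (250 before and 50 after the start), as did 2726 of 32851 promoters in the table (8.30%). The other 2 matches were in Glycam1, 145 bases before the start, and in Csn1s2a, 20 bases after it. A match describes the letters and was not tested as a binding site. The casein genes lie together on chromosome 5 (GRCm38), from Csn1s1 at 87666208-87682578 on the plus strand to Csn3 at 87925579-87932665, also on the plus strand.

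Genes for milk fat fell as well, although less uniformly. Of 19 tested, 13 fell and 3 rose in C3, with a median of -2.36. Btn1a1, a protein of the milk fat globule membrane, dropped from 81.5 and 95.1 CPM in C1 to 0.60 and 0.708 CPM in C3 (-7.08 ± 0.25). Plin2, which coats lipid droplets, dropped from 697 and 619 to 48 and 54.8 CPM (-3.70 ± 0.11). The desaturase gene Scd1 dropped from 492 and 347 to 96.9 and 72.1 CPM (-2.36 ± 0.10). In contrast, Dgat2, an enzyme of triglyceride synthesis, rose from 21.7 and 23.9 to 51.6 and 50.1 CPM (1.07 ± 0.16), and Scd2 and Elovl1 were the other rises. The call of Elovl1 was lost without PI replicate 2 (0.32).

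Surface and enzyme markers of luminal progenitors were present in C1. Of 18 tested, 15 fell in C3 and none rose, with a median of -4.60. Aldh1a3, a retinaldehyde dehydrogenase used to mark these cells, stood at 396 and 287 CPM in C7, 265 and 129.9 CPM in C1 and 0.60 and 1.22 CPM in C3 (-7.16 ± 0.18). Kit, the receptor of stem cell factor, stood at 21.7 and 31.6 CPM in C1 and 1.8 and 0.386 CPM in C3 (-5.48 ± 0.32). Cd14, the co-receptor for bacterial lipopolysaccharide, stood at 437 and 269.8 CPM in C1 and 30.9 and 25.9 CPM in C3 (-3.61 ± 0.11). For each of these 3 genes the lower mouse in C1 stood above the higher mouse in C3. The share of all tested genes with such a gap was not counted. Trf, which encodes the iron carrier transferrin, stood at 8998 and 11190.1 CPM in C7, 4402 and 5550.2 CPM in C1 and 42.6 and 42.7 CPM in C3 (-6.95 ± 0.09). Ltf, which encodes lactoferrin, stood at 4498 and 2829 CPM in C7, 2044 and 1049 CPM in C1 and 33 and 16.5 CPM in C3 (-6.03 ± 0.11). The 3 members not called were Cd24a (0.15 ± 0.08), Notch3 (-0.12 ± 0.18) and Basp1 (-2.26 ± 0.63), the last with an adjusted p of 0.27 (edgeR) although its level was 654 and 622 CPM in C1 and 87.9 and 194 CPM in C3. Basp1 was called by DESeq2 (-2.34) and without the block (-2.21). The call of Aldh1a3 was lost without PI replicate 2 (-8.78).

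The transcription factors of that lineage followed with smaller changes. Of 17 tested, 15 fell in C3 and 2 rose, with a median of -2.08. Elf5, the factor that drives alveolar fate, stood at 112 and 76.4 CPM in C1 and 6.0 and 7.4 CPM in C3 (-3.66 ± 0.17). Sox10, Foxc1 and Hey1 fell by 5.74, 5.79 and 5.35 on the log2 scale and were each under 2 CPM in C3. Nfib, a nuclear factor I gene active in lactation, stood at 219 and 216 CPM in C1 and 67.8 and 58.9 CPM in C3 (-1.86 ± 0.10). The rises were Hes1, a Notch target (112 and 102 CPM in C1 and 151 and 142 CPM in C3, 0.39 ± 0.10), and Id3, an inhibitor of basic helix-loop-helix factors (74.6 and 111 CPM in C1 and 156 and 215 CPM in C3, 0.93 ± 0.11). The call of Hes1 was lost without PI replicate 2 and without the block, at 0.39 in both fits.

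The remaining large falls were named by rule as the 12 called genes with the lowest log2 fold change. They held at least 20 CPM in 1 cluster, and their levels in the 2 mice did not overlap between C1 and C3. Car2, carbonic anhydrase 2, led them with 120.1 and 95.7 CPM in C1 and 0.30 and 0.644 CPM in C3 (-7.44 ± 0.24). Spp1, which encodes osteopontin, gave 796 and 1359 CPM in C1 and 8.1 and 10.7 CPM in C3 (-6.96 ± 0.13). Cck, which encodes cholecystokinin, gave 360.4 and 558 CPM in C1 and 2.7 and 5.73 CPM in C3 (-6.72 ± 0.15). That both mice stood higher in C1 for each of these genes was set by the rule. Wfdc18 gave 1731 and 853 CPM in C1 and 10.8 and 10.8 CPM in C3 (-6.69 ± 0.12), and Muc15, a membrane mucin of milk fat globules, gave 173 and 146 CPM in C1 and 2.4 and 0.901 CPM in C3 (-7.02 ± 0.19). Slc13a2 (-6.90) and Ncald (-6.67), at 20.1 to 42.3 CPM in C1, had no UMI in C3 of PI replicate 1 and under 1 CPM in PI replicate 2. The other 5 of the 12 were Aldh1a3, Btn1a1, Trf, Csn3 and Csn1s2a. Without PI replicate 2 the call of Wfdc18 was lost (-7.36).

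**Figure D1:**
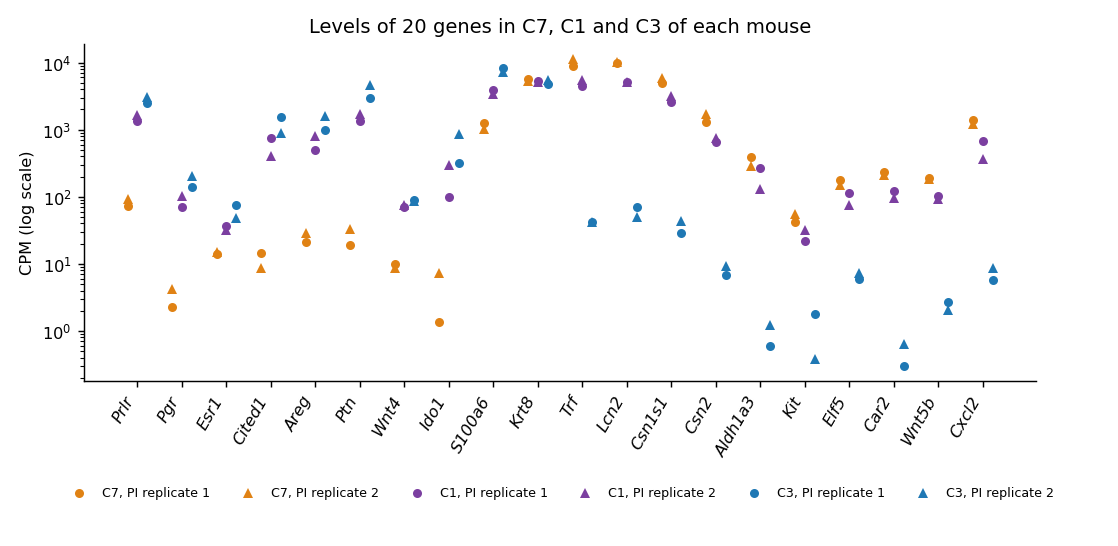
Levels of 20 genes in CPM (vertical axis, log scale) in C7 (orange), C1 (purple) and C3 (blue) of the PI mice, with circles for replicate 1 and triangles for replicate 2. The receptor genes Prlr, Pgr and Esr1 stand higher in C3 than in C1, and milk and luminal progenitor genes such as Csn1s1 and Aldh1a3 stand far lower. C1 lies between C7 and C3 for Prlr, Csn1s1 and Trf.

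Scaled to total UMIs, the receptor genes Prlr, Pgr and Esr1 rose from C1 to C3 by about 2-fold or less and were above C7 in both clusters. Prlr, the prolactin receptor, stood at 1359.7 and 1643 CPM in C1 and 2533 and 3079 CPM in C3 (0.84 ± 0.07), against 72.1 and 92.5 CPM in C7. Pgr, the progesterone receptor, stood at 69.9 and 101 CPM in C1 and 138 and 203 CPM in C3 (0.94 ± 0.11), against 2.3 and 4.27 CPM in C7. Esr1, the oestrogen receptor α, stood at 36.5 and 31.8 CPM in C1 and 75 and 47.8 CPM in C3 (0.70 ± 0.14), against 13.9 and 15.2 CPM in C7. In CPM the 3 receptor genes were thus higher in C3 in each mouse. As mean UMIs per cell at the depth as sequenced, all 3 were higher in C1 in each mouse. Prlr stood at 24.0 and 21.5 UMIs in C1 and 20.5 and 19.2 in C3. Pgr stood at 1.23 and 1.32 in C1 and 1.12 and 1.27 in C3, and Esr1 at 0.645 and 0.416 in C1 and 0.607 and 0.299 in C3. Cited1, a coactivator of oestrogen signalling, stood at 754 and 403 CPM in C1 and 1550.0 and 894 CPM in C3 (1.03 ± 0.08). Stat5a, a factor that prolactin signalling activates, rose by less (0.35 ± 0.12). Vdr, the vitamin D receptor, fell from 69.3 and 63.5 to 19.5 and 12.6 CPM (-2.21 ± 0.16), and Nrip1, a corepressor of nuclear receptors, fell from 355 and 395 to 208 and 163 CPM (-1.12 ± 0.10). The third fall was Fkbp5 (-0.80), which was lost without either replicate (-0.62 and -0.98). Without the block the calls of Cited1 (1.01) and Stat5a (0.36) were lost, and that of Stat5a also without PI replicate 2 (0.42). Over the list of receptors and coregulators, 5 of 11 tested genes rose and 3 fell, with a median of 0.05.

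Of 7 paracrine ligand genes of hormone-sensing cells tested, 4 rose and 2 fell in C3, with a median of 0.84. Areg, which encodes the epidermal growth factor receptor ligand amphiregulin, stood at 21.5 and 29.1 CPM in C7, 499 and 805 CPM in C1 and 989 and 1595 CPM in C3 (0.92 ± 0.08). Ptn, which encodes the growth factor pleiotrophin, stood at 1347 and 1726 CPM in C1 and 3009.8 and 4643 CPM in C3 (1.23 ± 0.07). Wnt5a stood at 46 and 67 CPM in C1 and 79.2 and 130.4 CPM in C3 (0.84 ± 0.12). PI replicate 2 was the higher mouse for each of the 3 in both clusters. Wnt4, the Wnt ligand induced by progesterone, was not called, with 69.3 and 75.2 CPM in C1 and 90.3 and 86.6 CPM in C3 (0.21 ± 0.11, adjusted p = 0.12, edgeR). Calca, the calcitonin gene, was called (1.62 ± 0.23), but its levels of 0 and 14.9 CPM in C1 and 0.30 and 47.1 CPM in C3 came almost wholly from PI replicate 2. Without the block Areg (0.92), Wnt5a (0.82) and Calca (1.46) were not called, and without PI replicate 2 Calca (4.05) and Cxcl12 (-2.24) were not. The falls were Gdf15, which stood at 14.3 and 14.7 CPM in C1, 1.2 and 1.61 CPM in C3 and 20.3 and 34.6 CPM in C7 (-3.31 ± 0.33), and Cxcl12, which stood at 4.23 and 7.16 CPM in C1 and 0.90 and 1.74 CPM in C3 (-2.11 ± 0.43).

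Transcription factors and surface genes of hormone-sensing cells rose in most cases. Among 12 factors tested, 8 rose and 2 fell, with a median of 0.45, and Foxa1, a pioneer factor of the oestrogen receptor, moved from 68.8 and 72.6 to 102 and 100.1 CPM (0.44 ± 0.11). Gata3, a luminal master regulator, stood at 141 and 140.4 CPM in C1 and 129.6 and 129 CPM in C3 and was not called (-0.19 ± 0.10). Zfp703 fell from 69.3 and 81.4 to 37.8 and 35.5 CPM (-1.15 ± 0.13), and Xbp1 was the other fall (-0.34), which was lost without PI replicate 1 (-0.07) and without the block (-0.36). The step of Foxa1 was thus small, and that of Gata3 did not pass the test. Among 12 surface and marker genes, 9 rose and 1 fell, with a median of 0.79. Prom1, which encodes CD133 and marks hormone-sensing luminal cells, stood at 145 and 126 CPM in C1 and 257 and 241 CPM in C3 (0.82 ± 0.10). S100a6, a calcium-binding protein, stood at 3908 and 3455 CPM in C1 and 8251 and 7218 CPM in C3 (1.00 ± 0.06). The fall was Itga2, an integrin that is also on the luminal progenitor list (-1.31 ± 0.24).

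Of 4 luminal keratins tested, 2 rose in C3 and none fell. Krt8 stood at 5245 and 5189 CPM in C1 and 4716 and 5565 CPM in C3, and its partner Krt18 stood at 9227 and 9008 CPM in C1 and 8143 and 9411 CPM in C3, and neither was called (-0.09 ± 0.06 and -0.13 ± 0.05). These keratins are shared by all luminal cells. Krt7 rose from 806 and 1133 to 1642 and 2492 CPM (1.02 ± 0.07) and Krt19 from 4008 and 3824 to 7488 and 6470.3 CPM (0.76 ± 0.06).

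The 12 genes with the largest called rises, chosen by the same rule, were of low or moderate level. Cfap126, a gene of motile cilia, stood at 4.23 and 9.35 CPM in C1 and 36.9 and 26.4 CPM in C3 (1.85 ± 0.22). Ido1, which encodes a tryptophan-degrading enzyme induced by interferon, was the most abundant, with 99.5 and 302 CPM in C1 and 318 and 871 CPM in C3 (1.52 ± 0.10). It was about 3 times higher in PI replicate 2 in both clusters, so that C3 of replicate 1 and C1 of replicate 2 stood at similar levels, and its call was lost without the block (1.49). Usp18, an interferon-induced protease, rose from 15.3 and 18.9 to 35.7 and 56.1 CPM (1.41 ± 0.18), and its neighbour on chromosome 6, Gm15856, rose from 13.2 and 11.5 to 46.8 and 44.7 CPM (1.85 ± 0.19). Muc13 (1.60), Cldn6 (1.5), Ly6c1 (1.46), Folr2 (1.42), Atp6v0e2 (1.39), A830008E24Rik (1.70) and BC030870 (1.36) were at most at 27.3 CPM in C1 and at most at 76.2 CPM in C3. Hba-a1, an α-globin, was also among them (1.39 ± 0.21, 9.0 and 9.95 CPM in C1 and 28.2 and 25.5 CPM in C3) although erythroid cells had been depleted, and its reads are uncertain because Hba-a2 is a near-identical copy. Against a log2 change of 1 (edgeR glmTreat), 8 of these 12 rises were not called, namely Atp6v0e2, BC030870, Cldn6, Folr2, Hba-a1, Ly6c1, Muc13 and Usp18. Ly6c1 was also lost without the block (1.45) and in a fit with the C7 sums (1.51), and Cldn6 and Muc13 were lost with thinned cells.

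**Figure D2:**
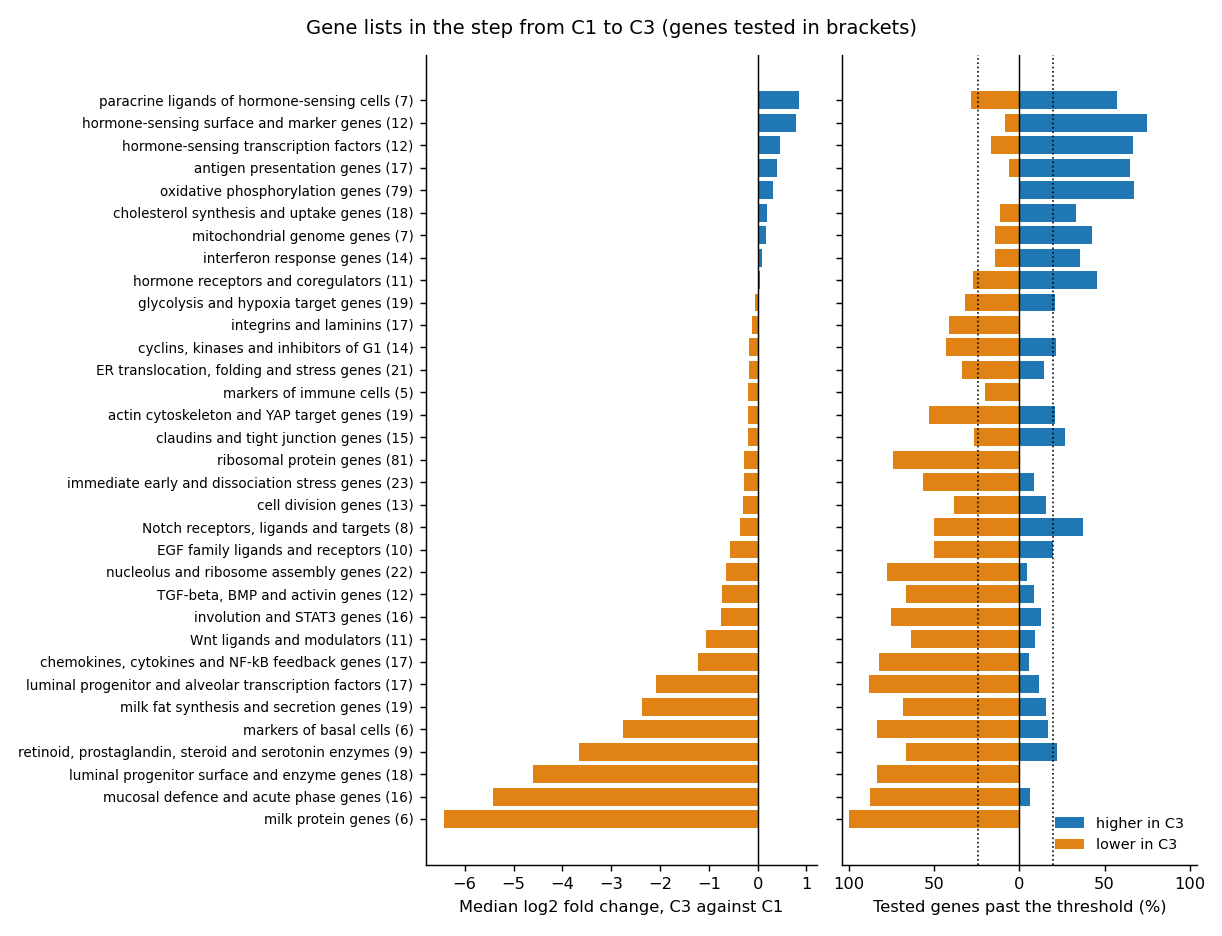
Median log2 fold change of C3 over C1 for 33 gene lists (left) and percent of the tested genes of each list called higher (blue) or lower (orange) in C3 (right), with dotted lines at the shares over all genes, 19.7% and 24.1%. Milk protein, mucosal defence and luminal progenitor lists stand at the low end, and hormone-sensing lists at the high end.

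Genes of mucosal defence and of inflammation were high in C1. Of 16 defence and acute phase genes tested, 14 fell in C3 and 1 rose, with a median of -5.41. Lcn2, which encodes the iron-siderophore binding protein lipocalin 2, stood at 9996 and 10297 CPM in C7, 5176 and 5193 CPM in C1 and 71.1 and 49.1 CPM in C3 (-6.56 ± 0.09). Wfdc2, a secreted protease inhibitor, was the rise (729 and 949.5 CPM in C1 and 1592 and 2155 CPM in C3, 1.09 ± 0.08). Of 17 chemokine, cytokine and NF-kB feedback genes, 14 fell and 1 rose, with a median of -1.21. Cxcl1, a neutrophil attractant, stood at 1332 and 962 CPM in C1 and 37.8 and 57.1 CPM in C3 (-4.54 ± 0.42). Cxcl2, a second attractant, stood at 670.1 and 363 CPM in C1 and 5.7 and 8.56 CPM in C3 (-5.85 ± 0.14). Csf3, the granulocyte growth factor, stood at 744 and 407 CPM in C1 and 17.4 and 10.9 CPM in C3 (-5.35 ± 0.12). PI replicate 1 was the higher mouse in C1 for all 3. Il33 rose from 3.7 and 1.79 to 14.7 and 4.44 CPM (1.56 ± 0.38). Among 16 genes of involution and STAT3 signalling, 12 fell and 2 rose, with a median of -0.75, and Igfbp5, the binding protein of insulin-like growth factors secreted by involuting epithelium, stood at 1120.5 and 1055 CPM in C1 and 28.5 and 11.5 CPM in C3 (-6.09 ± 0.23). The calls of Lcn2 (-6.22) and Igfbp5 (-5.33) were lost without PI replicate 2, and that of Il33 without the block (1.71).

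Antigen presentation and mitochondrial respiration moved the other way, by small steps. Of 17 antigen presentation genes, 11 rose and 1 fell, with a median of 0.40. B2m, the light chain of MHC class I, stood at 1342 and 1047 CPM in C1 and 1864 and 1944 CPM in C3 (0.62 ± 0.07), and the fall was Cd74, a class II chaperone that is also an immune marker and was lost without PI replicate 1 (-0.16) and without the block (-1.13). Of 79 oxidative phosphorylation genes, 53 rose and none fell, with a median of 0.32. Of 81 ribosomal protein genes, none rose and 60 fell, with a median of -0.27, and of 22 genes of the nucleolus and ribosome assembly 1 rose and 17 fell, with a median of -0.65. Ncl, which encodes nucleolin, stood at 887 and 799 CPM in C1 and 556 and 549 CPM in C3 (-0.67 ± 0.08). With total UMIs in place of TMM factors the median over all genes was 0.07, a shift of less than 0.1.

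Signalling families held members on both sides. Of 11 Wnt ligands and modulators 7 fell and 1 rose, with a median of -1.05, and Wnt5b stood at 101 and 93.1 CPM in C1 and 2.7 and 2.06 CPM in C3 (-5.47 ± 0.20), opposite in direction to Wnt5a. Of 10 genes of the epidermal growth factor family, 5 fell and 2 rose. Egfr, the receptor of amphiregulin, stood at 21.2 and 18.9 CPM in C1 and 0 and 0.966 CPM in C3 (-4.68 ± 0.34), and its ligand gene Hbegf stood at 556 and 632 CPM in C1 and 195 and 189 CPM in C3 (-1.70 ± 0.10). The receptor gene was thus at 1 CPM or less in C3, where the ligand gene Areg was higher than in C1. Of 8 Notch genes 4 fell and 3 rose, and Jag1, a Notch ligand, rose from 11.1 and 13.7 to 19.8 and 23.2 CPM (0.72 ± 0.20) while Notch1 fell from 39.7 and 48.9 to 30 and 27.3 CPM (-0.75 ± 0.16). Of 12 genes of the TGF-beta, BMP and activin group, 8 fell and 1 rose, with a median of -0.72. Tgfb2 fell from 52.4 and 51.9 to 1.2 and 0.901 CPM (-5.78 ± 0.25) and Tgfb1 rose from 44.5 and 28.8 to 70.5 and 48.1 CPM (0.64 ± 0.14). Jag1 (0.80) and Notch1 (-0.44) were not called without PI replicate 2, nor was Tgfb1 without the block (0.65).

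Proliferation genes were low in both clusters. Of 13 cell division genes tested 5 fell and 2 rose, with a median of -0.31, and Top2a stood at 6.88 and 3.38 CPM in C1 and 2.1 and 1.09 CPM in C3 (-1.71 ± 0.49). Cdk1 stood at 3.7 and 3.18 CPM in C1 and 0 and 0.0644 CPM in C3 (-5.57 ± 1.01). Among 14 cyclins, kinases and inhibitors of G1, 6 fell and 3 rose, with a median of -0.17. Ccnd1, the cyclin D1 gene, stood at 102 and 158 CPM in C1 and 95.1 and 118 CPM in C3 (-0.36 ± 0.10), and Myc at 82.6 and 73.6 CPM in C1 and 32.1 and 25.6 CPM in C3 (-1.53 ± 0.14). Immediate early genes, which respond to tissue dissociation, fell in 13 and rose in 2 of 23 cases, with a median of -0.29, and Fos stood at 1558 and 2187 CPM in C1 and 1330.5 and 1709 CPM in C3 (-0.36 ± 0.07). Ccnd1 (-0.13) and Top2a (-1.74) were not called without PI replicate 2, and Ccnd1 (-0.36) and Fos (-0.37) were not called without the block.

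Most of the other lists held calls in both directions, beside 19.7% higher and 24.1% lower in C3 over all genes tested. Claudins and tight junction genes had 4 rises and 4 falls of 15, cholesterol genes 6 and 2 of 18, glycolysis and hypoxia genes 4 and 6 of 19, actin and YAP target genes 4 and 10 of 19, interferon genes 5 and 2 of 14, and genes of folding and stress in the endoplasmic reticulum 3 and 7 of 21. Integrins and laminins had no rise and 7 falls of 17, and enzymes of retinoid, prostaglandin, steroid and serotonin metabolism 2 rises and 6 falls of 9. Tph1, the enzyme that starts serotonin synthesis, was a rise, from 10.1 and 39.2 to 43.2 and 85.5 CPM (1.26 ± 0.15), and was lost without the block (1.21). Genes of the mitochondrial genome had 3 rises and 1 fall of 7.

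Markers of cells outside the luminal layer were low but moved with the comparison. The summed level of the 12 basal markers was 66.7 and 259 CPM in C1, 34.5 and 47.7 CPM in C3 and 94.4 and 250 CPM in C7, and 5 of 6 tested fell in C3. Acta2, the smooth muscle actin of basal cells, stood at 10.1 and 68 CPM in C1, 1.8 and 8.56 CPM in C3 and 18.8 and 44.4 CPM in C7, so that its C1 level came mainly from PI replicate 2, and it was not called without the block (-2.78). Immune markers summed to 55.6 and 28.6 CPM in C1 and 19.2 and 32.4 CPM in C3, fibroblast markers to 5.82 and 41.2 CPM against 7.2 and 24.2 CPM, and endothelial markers to 18.5 and 29.8 CPM against 16.8 and 14.6 CPM. Of the few markers tested, 1 of 5 immune markers fell, 1 of 2 fibroblast markers rose and 1 fell, and 1 of 2 endothelial markers fell. In C1, 2 and 0 of 12 basal, 7 and 6 of 14 immune, 4 and 0 of 8 fibroblast and 6 and 0 of 11 endothelial and pericyte markers were at 0, and in C3 the counts were 2 and 1, 4 and 2, 4 and 0, and 9 and 2. Ptprc, Cd3e and Cd79a were among those at 0 in C1 of both mice. The part of other cells in the differences was not tested.

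The median C1 cell carried more than 2 times the UMIs of the median C3 or C7 cell of the same mouse. The median was 16314 UMIs per cell in C1, 7179 in C3 and 6484 in C7 of PI replicate 1, and 11580, 5638 and 5579 in PI replicate 2. The median number of genes with a UMI was 4003 and 3272 in C1 against 2455 and 2056 in C3. The median share of mitochondrial UMIs was 0.765% and 0.642% in C1, 0.904% and 0.760% in C3 and 0.561% and 0.516% in C7, so that C1 lay between the other clusters. The mean of a C1 cell was 17658 UMIs in PI replicate 1, and the mean of 1 C3 cell plus that of 1 C7 cell came to 17065, a ratio of 1.03. In PI replicate 2 the values were 13057 and 13484, a ratio of 0.968. C1 made up 7.38% and 9.18% of the kept cells of its libraries, C3 28.4% and 59.3%, and C7 56.9% and 26.3%. No doublet caller was run here. The study had screened for doublets only among clusters rarer than its maximum doublet rate that also resembled at least 2 others. By the shares given here C1 was over that limit in both libraries, so that the screen is no check of C1. The 1 cluster removed was neither C1, C3 nor C7.

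**Figure D3:**
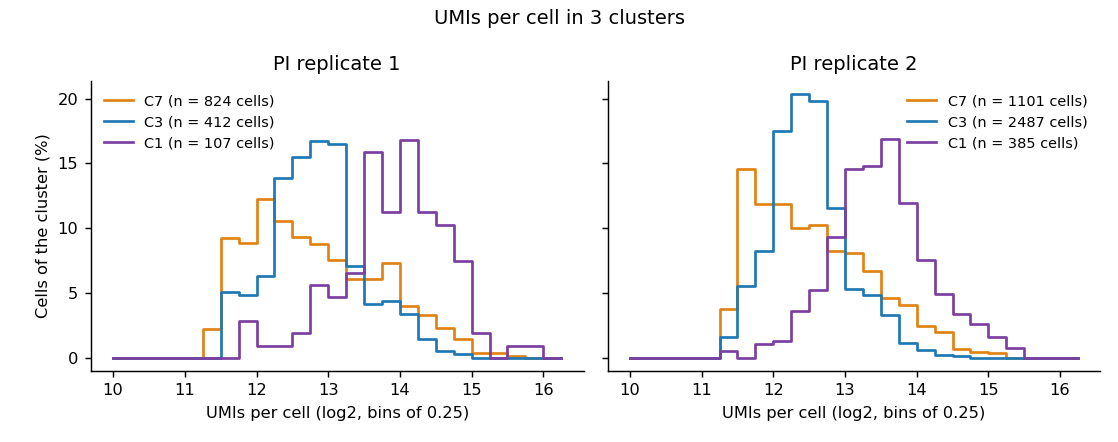
Distribution of log2 UMIs per cell (horizontal axis, bins of 0.25) in C7, C3 and C1 of each PI mouse. The C1 curves lie to the right of C3 and C7 in both mice, with medians of 16314 and 11580 UMIs per cell.

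UMIs of both marker sets were found under the same C1 barcodes. Each cell was thinned to 2000 UMIs so that depth would not differ, and the share of cells with a UMI was counted. Prlr was seen in 89.7% and 93.5% of C1 cells, 97.3% and 98.8% of C3 cells and 10.3% and 13.5% of C7 cells. Pgr was seen in 15% and 22.3% of C1 cells, 21.6% and 32.7% of C3 cells and 0.121% and 0.727% of C7 cells. Before thinning the Pgr shares were 55.1% and 64.7%, 56.3% and 64.9%, and 1.70% and 2.36%. Pgr transcripts were therefore less often seen in a C1 cell than in a C3 cell at equal depth, and nearly as often at the depth as sequenced. Aldh1a3 was seen in 24.3% and 18.2% of thinned C1 cells, 0.243% and 0.322% of C3 cells and 29.2% and 29.1% of C7 cells, and before thinning in 55.1% and 45.2%, 0.485% and 0.684%, and 47.2% and 47.5%. Kit was seen in 1.87% and 8.05%, 0.243% and 0.080%, and 8.98% and 9.81% of thinned cells. A UMI from both a list of 7 hormone-sensing markers and a list of 5 luminal progenitor markers was found in 66.4% and 63.1% of thinned C1 cells, 7.28% and 7.08% of C3 cells and 65.9% and 66.6% of C7 cells. Unthinned it was 98.1% and 93.8% in C1. With at least 5 UMIs of the first list and at least 2 of the second, the thinned shares were 30.8% and 28.3% in C1, 0.728% and 0.201% in C3 and 13.8% and 10.4% in C7. With 1 UMI of each list the share in C1 was thus close to that in C7, and at the stricter limit C1 was the highest of the 3 clusters in both mice. In C7 the first list was seen mainly through S100a6, in 68.2% and 70.7% of thinned cells. The next highest member there was Prlr, in 10.3% and 13.5%. The part of free RNA and of droplets with a pair of cells in these shares was not tested. Of the markers of another lineage, basal Krt14 was seen in 2.80% and 3.90% of thinned C1 cells against 0.971% and 1.21% in C3 and 1.82% and 4.36% in C7.

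Whether C1 had genes of its own was asked by testing if its level exceeded both C3 and C7, since no mixture of the levels of C3 and C7 can lie above both. Levels were scaled by total UMIs, and a gene was called above both only where the less significant of its comparisons passed. Of 11471 genes tested over 6 sums, 0 (0%) were called above both and 0 below both by edgeR's quasi-likelihood test. At an unadjusted p under 0.05 there were 64, of which 45 were above and 19 below. DESeq2 and the other settings tried also called 0, except that without a filter on low counts edgeR called 2. These were Fabp4, the fatty acid carrier of fat and endothelial cells, with 1 and 242 UMIs in C1, 0 and 47 in C3 and 13 and 140 in C7 (adjusted p = 0.0015, edgeR), and Cldn5, the endothelial claudin, with 0 and 44, 0 and 2, and 1 and 7 UMIs (adjusted p = 0.028, edgeR). Both rested almost wholly on PI replicate 2.

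The levels themselves gave the same picture without a test. Of 2912 genes at 50 CPM or more in C1, 153 (5.25%) were above C3 and C7 in both mice and 119 were below both. None was above both by 1.5-fold or more in each mouse. The largest excess was that of Ube2m, which encodes a conjugating enzyme of NEDD8, with 107 and 110.0 CPM in C1 against 78.3 and 85 CPM in C3 and 76.7 and 79.4 CPM in C7, 1.29-fold in the mouse with the smaller excess.

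The position of C1 between C7 and C3 was then measured for genes that differed at least 4-fold between these clusters and reached 50 CPM. On a scale from 0 (the level of C7) to 1 (the level of C3), the median position was 0.475 over 486 genes in PI replicate 1, with quartiles of 0.401 and 0.531, and 0.485 over 494 genes in PI replicate 2, with quartiles of 0.435 and 0.527. No gene lay outside 0 to 1. A mixture of equal numbers of average C3 and C7 cells would draw 0.474 and 0.463 of its UMIs from C3. Genes high in C3 had medians of 0.467 and 0.477 and genes high in C7 medians of 0.481 and 0.488, so that both programmes gave nearly the same position. The median over mice was 0.480, and it was 0.554 when cells above the 90th percentile of the depth of C3 cells were left out, a setting added after seeing the data that kept 42 and 139 C1 cells. In that setting the positions were 0.513 and 0.594, and an equal mixture would draw 0.527 and 0.518 of its UMIs from C3.

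Single C1 cells lay around the same place. Scored on the same scale from genes at least 8-fold apart between C3 and C7, their median was 0.488 in PI replicate 1 and 0.512 in PI replicate 2, with quartiles of 0.342 and 0.620 and of 0.377 and 0.664. A position from 0.25 to 0.75 was held by 89 C1 cells (83.2%) and 303 C1 cells (78.7%), against 0.971% and 0.925% of C3 cells and 6.92% and 2% of C7 cells. C1 thus filled the gap between the other clusters in both mice, while 26 and 86 of its cells were within 0.05 of a limit of that range. The position moved with depth. In C1 cells split into 3 equal groups by depth, the median was 0.579, 0.518 and 0.357 in PI replicate 1, at median depths of 9681, 16314 and 26039 UMIs, and 0.594, 0.497 and 0.401 in PI replicate 2, at 7629, 11580 and 17834 UMIs. The shallow C1 cells were closer to C3 and the deep ones closer to C7. The clustering had used the genes scored here, and this measure was chosen after seeing the data.

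**Figure D4:**
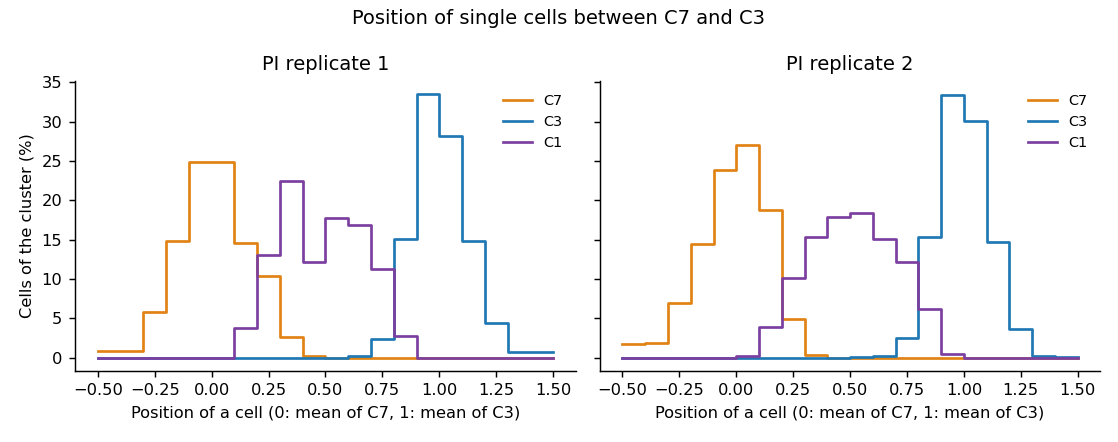
Distribution of single-cell positions in each PI mouse on a scale where 0 is the mean of C7 and 1 the mean of C3, for C7, C1 and C3 cells. C7 and C3 form separate peaks and C1 lies between them, with medians of 0.488 and 0.512.

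An average C1 cell was then set against the sum of 1 average C3 cell and 1 average C7 cell of the same mouse, gene by gene, in a comparison added after seeing the data. Among 7058 and 6306 genes with at least 0.2 UMIs per cell, 97.0% and 99.3% were within 1.5-fold of that sum and 99.8% and 99.9% within 2-fold. The share of genes as near to another luminal profile was not computed. The log2 departures from the sum had a Pearson correlation of 0.307 between the mice over 6273 genes. Tested by edgeR with the mouse as a block, 345 of 10181 genes (3.39%) differed from the sum, 196 above it (1.93%) and 149 below it (1.46%). Over the 2912 genes at 50 CPM or more, the absolute log2 difference had a median of 0.08, a 95th percentile of 0.27 and a maximum of 0.69. Without the block 0 genes were called in either direction, and with DESeq2 14 and 13 were.

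**Figure D5:**
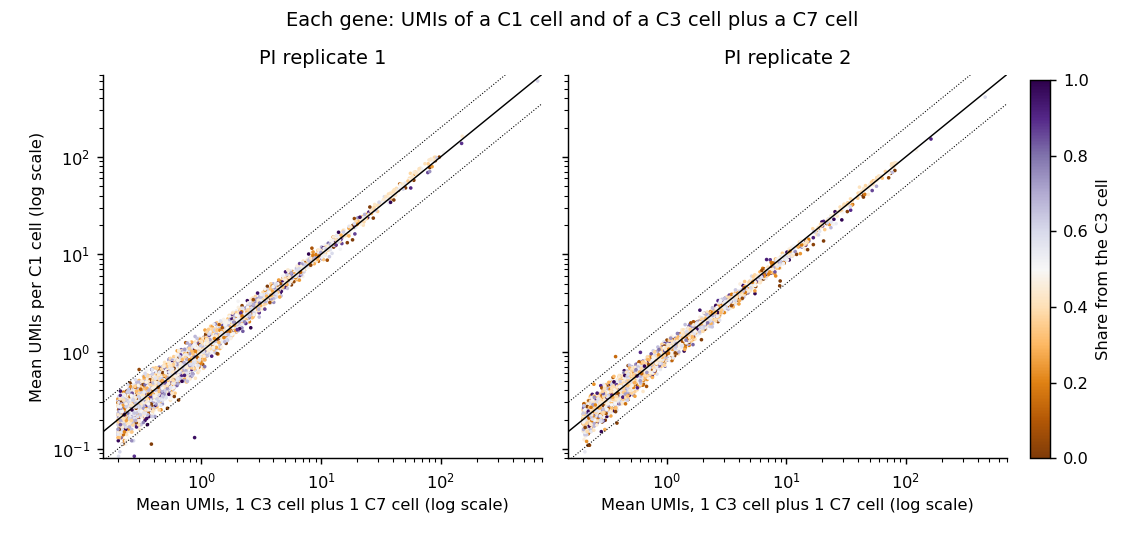
Mean UMIs per C1 cell (vertical axis) against the sum of 1 average C3 cell and 1 average C7 cell (horizontal axis), 1 point per gene and 1 panel per PI mouse, both axes on a log scale, coloured by the share that the C3 cell gives. The points follow the line of equality, and 99.8% and 99.9% of them lie between the dotted lines at 2-fold.

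Of all genes that departed from the sum, 52 did so by more than 0.5 on the log2 scale and 11 by more than 1, up to 2.11 for Fabp4, and all 11 were under 50 CPM in C1. Among genes at 50 CPM or more in C1 the largest difference was that of Wnt4, with 69.3 and 75.2 CPM in C1 against 48.2 and 44.9 CPM in the sum, a log2 difference of 0.69 ± 0.09 (adjusted p = 8.5e-09, edgeR). Slc7a2, a carrier of cationic amino acids, stood at 189 and 204 CPM against 142 and 141 CPM (0.50 ± 0.06). Genes were named here only where both mice lay on the same side of the sum, so that agreement between the mice was set by the rule. Below the sum were Csf3, with 744 and 407 CPM against 972 and 662 CPM (-0.56 ± 0.04), Ido1, with 99.5 and 302 CPM against 151 and 407 CPM (-0.47 ± 0.06), and Ltf, with 2044 and 1049 CPM against 2381 and 1526 CPM (-0.39 ± 0.05). That rule took the 8 largest called differences in each direction at 50 CPM or more in C1. The others above were Gm26532 (0.58), Sidt2 (0.51), Sipa1l3 (0.50), Fbxw11 (0.45), Ube2m (0.43) and C77080 (0.42). The others below were Prss22 (-0.42), Rpl7l1 (-0.40), Ctnnbl1 (-0.37), Ebna1bp2 (-0.37) and Stap2 (-0.36). All 16 lost their call without the block, and 13 of them without PI replicate 2, at values from -0.37 for Ebna1bp2 to 0.59 for Sipa1l3. Of the ribosomal protein genes, 25 of 81 were above the sum and 2 below. Of 9 basal markers tested, 4 were above the sum and none below, with a median of 0.92, against 1.93% above and 1.46% below over all genes. They were Krt17 (0.49 ± 0.10), Acta2 (1.17 ± 0.11), Myh11 (1.31 ± 0.26) and Mylk (1.73 ± 0.24), and for Acta2, Myh11 and Mylk the excess was in PI replicate 2 alone. The part of basal cells in it was not tested. Of 18 luminal progenitor surface genes 5 were below the sum and 1 above, with a median of -0.092, and of 7 milk protein genes 3 were below and none above, with a median of -0.18. Whether a C1 droplet held 1 cell or a pair of cells was not tested.

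The step from C1 to C3 was set against the same step in NP mice, from C2 to C4. C2 and C4 were the clusters that the study named hormone-sensing progenitors and hormone-sensing differentiated cells of NP mice, with 265 and 169 cells in C2 and 971 and 1212 in C4. The difference of the steps was tested by edgeR over 8 sums of the 4 mice, with each mouse as a block. A positive value means that the log2 fold change of C3 over C1 was above that of C4 over C2. Of 11403 genes tested, 1047 (9.18%) differed, 249 (2.18%) more positive and 798 (7%) more negative in PI mice, with a median over all genes of -0.03. With total UMIs in place of TMM factors the split was 385 and 492, and without the block it was 15 and 137. Within either stage the comparison of clusters was made in the same mice, but parity, age and stage cannot be told apart between them.

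Among the gene lists, milk protein genes had the lowest median difference in steps (-3.66), followed by basal markers (-2.24) and defence genes (-1.99). Csn2 stood at 648 and 763 CPM in C1 and 6.9 and 9.27 CPM in C3 of PI mice, but at 0.387 and 0.289 CPM in C2 and 0.158 and 0.414 CPM in C4 of NP mice, a difference in steps of -6.16 ± 0.89. Csn1s1 gave 2.9 and 1.44 CPM in C2 and 0.474 and 0.414 CPM in C4 (-4.10 ± 0.55). Csn1s2a gave 0.387 and 0.578 CPM in C2 and 0.237 and 0.62 CPM in C4 (-6.58 ± 0.80). In NP mice these genes were thus near 0 in both clusters and rested on few UMIs. Slc39a8, a zinc and manganese carrier, went from 37 and 17.5 to 0.30 and 0.322 CPM in PI mice and from 0 and 0.289 to 0.237 and 0.138 CPM in NP mice (-6.68 ± 1.5), and Wfdc3 differed by -4.30 ± 0.33. The sixth gene was Fabp4 (-4.32 ± 0.73), whose C1 level of 0.529 and 48.1 CPM came from PI replicate 2 and whose sign turned to 0.16 when deep cells were left out. Slc39a8 was not called without PI replicate 2 (-7.52) or NP replicate 1 (-5.11), Csn2 not without NP replicate 2 (-5.28), and Fabp4 not without PI replicate 2 (-5.14) or without the block (-4.13). Of 6 milk protein genes 4 were more negative in PI mice, of 16 defence genes 11 (1 more positive), of 19 milk fat genes 12, of 18 luminal progenitor surface genes 9 and of 11 basal markers 7. The summed level of basal markers in C1 was 66.7 and 259 CPM and thus far higher in PI replicate 2.

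Fewer genes had a more positive step in PI mice. The largest positive value was that of Bglap3, an osteocalcin gene, which went from 74.1 and 93.3 CPM in C1 to 122 and 163 CPM in C3 but from 27.8 and 32.1 CPM in C2 to 2.37 and 1.79 CPM in C4 (4.52 ± 0.21). Its close relatives Bglap and Bglap2 share sequence with it, so that its counts are uncertain. Epb41l3 (2.89), Lhfp (1.75), Plekhb1 (1.5), Calca (1.48) and Car8 (1.40) followed. Lhfp (1.73) and Calca (3.91) were not called without PI replicate 2, nor was Calca without the block (1.35). For Pgr the NP levels were 110.0 and 105 CPM in C2 and 159 and 141 CPM in C4, and the difference in steps was 0.42 ± 0.12 (adjusted p = 0.017, edgeR). Prlr gave 1602 and 1578 CPM in C2 and 2277 and 2225 CPM in C4 (0.29 ± 0.08), and Esr1 gave 64 and 70.5 CPM in C2 and 80.3 and 91 CPM in C4 (0.30 ± 0.16, adjusted p = 0.27, edgeR). Of 12 hormone receptor and coregulator genes, 2 were more positive and 2 more negative in PI mice, and of 79 oxidative phosphorylation genes none differed in either direction. Of 81 ribosomal protein genes, 48 were more negative and none more positive.

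The position of C2 was measured in the same way. Between C6 (the study's luminal progenitors of NP mice) and C4, its median position was 0.643 in NP replicate 1 and 0.669 in NP replicate 2, against 0.475 and 0.485 for C1 in PI mice. The share of UMIs that 1 average C4 cell gives in a sum with 1 average C6 cell was 0.594 and 0.611 in NP mice. With cells above the 90th percentile of depth left out, the positions were 0.622 and 0.653 for C2 and 0.513 and 0.594 for C1. The share from the C4 cell was then 0.558 and 0.586. The positions of C2 were above those of C1 in each setting, by less with deep cells left out, and the difference between the stages was not tested. Of 11021 genes tested for C2 above both C4 and C6, 0 (0%) were called above and 0 below (edgeR, 137 at an unadjusted p under 0.05), and of 2837 genes at 50 CPM or more, 223 (7.86%) were above both in both mice, none by 1.5-fold, with Rras at 1.27-fold the largest. An average C2 cell held 19523 and 20478 UMIs against 21954 and 19601 for 1 C4 cell plus 1 C6 cell, ratios of 0.889 and 1.04. Tested against that sum, 777 of 10693 genes (7.27%) differed by edgeR, 364 above it (3.4%) and 413 below it (3.86%), and 0 without the block.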

How the data were processed

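Droplet single-cell RNA-seq of sorted mammary epithelial cells was used from 2 PI and 2 NP mice. The authors deposited UMI counts per gene and cell made with Cell Ranger (alignment with STAR to mm10 per the labels), an annotation with library, cluster and quality flag, and the mitochondrial fraction of each cell's UMIs. No cell was filtered here beyond the deposited flag, and 1 annotated cell had no barcode in the count matrices. Doublets were handled as in the deposited clusters, and no doublet caller was run.

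Counts of 27998 genes were summed per library and cluster, of which 56 symbols belonged to more than 1 gene identifier. CPM used total UMIs. Genes were kept by filterByExpr (minimum count 10, minimum total 15), and edgeR 4.0.16 in R 4.3.3 fitted quasi-likelihood models with the library as a block, with DESeq2 1.42.0 as an alternative. The pairing comes from the mouse: deviations of C1 and C3 of 1 mouse from the cluster means had a correlation of 0.378 over 10599 genes. Models were tested on simulated data. Tables were handled in Python 3.11.15 with numpy 2.4.6, pandas 2.3.3 and scipy 1.17.1. Alternatives changed the scaling, filter, block, depth per cell, cells used, tool and libraries. With the library as a block, p-values measure how the differences between clusters varied among the 2 mice of a stage. That spread was estimated largely across genes, since few residual degrees of freedom were left.

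Members and the 36 gene lists were chosen with earlier results of these data known. Named genes were the 12 largest called rises and falls of C3 over C1, at 20 CPM or more in 1 cluster. Their levels did not overlap between C1 and C3. Further named genes were up to 15 genes above both C3 and C7 and 5 below both (none passed), 6 in each direction for the difference from NP mice, list members and genes the study named. For the sum of cells, the 8 largest in each direction at 50 CPM or more, with both mice on the same side, were named. They were named after their values were seen, as were Fabp4 and Cldn5 among genes above both, Ube2m and Rras. The values of 1 gene of the lists are not reported here.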

Additional observations from a re-analysis of the deposited data

Results flagged for a closer look

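The step from C1 to C3 differed between PI and NP mice in 249 genes that were more positive and 798 that were more negative in PI mice, by edgeR's test of the difference over 8 sums. The values that follow are the log2 fold change of C3 over C1 minus that of C4 over C2. Bglap3 stood at 4.52, Epb41l3 at 2.89, Lhfp at 1.75, Plekhb1 at 1.5, Calca at 1.48 and Car8 at 1.40. Slc39a8 stood at -6.68, Csn1s2a at -6.58, Csn2 at -6.16, Fabp4 at -4.32, Wfdc3 at -4.30 and Csn1s1 at -4.10. These negative values rest on genes at few UMIs in C2 and C4 of NP mice, and Calca and Fabp4 rest mainly on PI replicate 2. Parity, age and library cannot be told apart in this difference.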

How the results depend on the processing

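Counts of called genes moved with the setting while most directions held. For C3 over C1 (2088 higher, 2559 lower) the counts were 875 and 1505 with DESeq2, 2397 and 2238 with total UMIs, 840 and 1237 with cells under the 90th percentile of depth, 636 and 983 with thinned cells, 6 and 597 with glmTreat, 762 and 1584 with no replicate block, and from 963 to 2645 and from 1266 to 2577 with 1 mouse left out, the lower values without PI replicate 2. For C1 above both clusters the count rose from 0 to 2 without a filter on low counts, for C2 from 0 to 1 (Jund), and no replicate block changed neither. For the difference from NP mice (249 and 798) they were 77 and 299 with DESeq2, 53 and 200 with capped depth, 14 and 97 thinned, 134 and 420 at equal cell number, 15 and 137 with no replicate block, 385 and 492 with total UMIs, 516 more negative without a filter, and from 77 to 421 and from 193 to 709 with 1 mouse left out. The lowest counts were those without PI replicate 2, and without NP replicate 1 they were 77 and 403.

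For C1 against the sum of cells (196 and 149, all settings added after seeing the data) they were 14 and 13 with DESeq2, 11 and 29 with capped depth, 0 and 0 with no replicate block, and from 19 to 121 and from 25 to 107 with 1 mouse left out. For C2 against the sum of C4 and C6 cells (364 above, 3.4%, and 413 below, 3.86%, of 10693 tested) they were 32 and 50, 76 and 116, 0 and 0, and from 59 to 181 and from 126 to 235. The position of C1 was 0.480, 0.554 with capped depth, and 0.475 to 0.485 with 1 mouse left out. The share of C1 cells with both marker lists was 64.7% ± 2.29 (SD, n = 2), 57.4% at 1500 and 76.0% at 3000 UMIs per cell.

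Of 1375 values under alternatives for 127 fold changes of genes named in the text, 1164 kept direction and call, 192 kept direction and lost the call, 11 gained it and 8 changed sign. The sign changes were Fabp4 in the difference from NP mice (0.16), Cd24a (-0.012) and Notch3 (0.48) with capped depth, Notch3 at equal cell number (0.25), and, with 1 mouse left out, Cd24a (from -0.056 to 0.46), Notch3 (from -0.29 to 0.47), Krt8 (from -0.19 to 0.13) and Krt18 (from -0.21 to 0.088), of which Cd24a, Notch3, Krt8 and Krt18 were not called in the first place. The cause was not tested. With 1 PI mouse left out, C3 against C1 rested on 1 pair of sums, assumed to vary like those of the NP mice. Of 27998 genes, 10599 held enough counts to be tested for C3 over C1, and nothing is said of the others.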
